A study of Homo sapiens with 18 samples.

Results

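The proteasome is the barrel-shaped protease that breaks down ubiquitin-tagged proteins, among them the α-subunits of hypoxia-inducible factor (HIF) when oxygen is present. Transcripts of the genes that encode its subunits, caps and assembly chaperones were measured here by polyA+ RNA-seq in 3 human cell lines under normoxia and hypoxia. Genes were taken by name, as every symbol that begins with PSMA, PSMB, PSMC, PSMD, PSME, PSMF or PSMG followed by a number. The rule found 49 of the 23106 genes in the count files. Of these, 48 belong to the proteasome, and the other one, PSMC3IP, encodes a DNA recombination protein named after a partner and is left out of the counts below.

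The core particle is a stack of rings. The outer α-rings, encoded by PSMA1 to PSMA7, gate the entrance, and the inner β-rings, encoded by PSMB1 to PSMB7, hold the protease sites. The regulatory particle sits on the ends of the core, and its ATPases (PSMC1 to PSMC6) unfold the substrate while its non-ATPase subunits (PSMD genes) bind and remove ubiquitin. In immune cells and after interferon, PSMB8, PSMB9 and PSMB10 replace the catalytic subunits PSMB5, PSMB6 and PSMB7 to form the immunoproteasome, which favours peptides for MHC class I presentation. Core subunits and subunits of the regulatory particle are known to be transcribed together, under the transcription factor NFE2L1, which is itself made in the endoplasmic reticulum and processed before it reaches the nucleus. The 48 genes comprised 7 genes of the α-ring, 7 of the β-ring, 2 tissue-restricted core subunits, 3 immunoproteasome subunits, 6 regulatory ATPases, 11 regulatory non-ATPase subunits, 4 alternative caps, 1 inhibitor and 7 assembly chaperones.

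The 18 samples were 3 normoxic and 3 hypoxic replicates of each line. HKC-8 is an immortalised human kidney proximal tubule line, RCC4 is a kidney cancer line that the labels give as RCC4+VHL, stably transfected with wild-type VHL (the ubiquitin ligase subunit that recognises HIF-α), and HepG2 is a hepatocellular cancer line. By the sample characteristics, hypoxia was 0.5% oxygen for 16 h in HKC-8 and HepG2 and 1% oxygen for 24 h in RCC4, and if that holds, line and exposure cannot be told apart wherever RCC4 is set against another line. The titles of the HKC-8 hypoxia samples give 0.1% instead, and the text of the study gives RCC4 the same RNA-seq exposure as the other lines, against its labels, and neither conflict could be settled here. Each line stands for itself and not for a tissue, and nothing in the labels says that replicates were separate cultures, so p-values measure the spread between these samples, which may be technical.

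HKC-8 libraries held 75441764 to 97984260 counts each, RCC4 libraries 42045335 to 51794355 and HepG2 libraries 40915980 to 48355303. Levels below are TMM-normalised CPM, counts scaled to a common library size for all 18 samples. Before the TMM factor, 3 counts corresponded to 0.0306 to 0.0733 CPM. Of 12 known hypoxia-induced genes, all tested rose in each line (12 of 12 in HKC-8, 10 of 10 in RCC4, 12 of 12 in HepG2). Summed CPM of 8 liver markers was 33511 to 42082 in HepG2 and at most 11.2 elsewhere. That of 8 kidney tubule markers was 443 to 573 in RCC4, 135 to 183 in HKC-8 and 40.1 to 52.9 in HepG2. Of 7 tubule markers tested between the normoxic kidney lines, 6 were higher in RCC4 and 1 lower (edgeR, adjusted p under 0.05). Their median log2 fold change over HKC-8 was 6.23. The HKC-8 sum therefore does not describe most of these markers and is weak evidence of tubule identity. Of 6 leukocyte markers, PTPRC, which defines blood cells, had at most 5 counts in any sample, while LYZ alone, with group means of 2414 and 2786 CPM, made up most of the HepG2 sum of 2376 to 2895 CPM.

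Proteasome genes were called lower in hypoxia in every line, and none was called higher. In HKC-8, 21 of 44 tested genes were called lower (edgeR quasi-likelihood test, Benjamini-Hochberg adjusted p under 0.05), against 9.12% of all tested genes called lower. In RCC4, 32 of 44 were called lower, against 24.2% of all tested genes, and in HepG2 20 of 46, against 19.2%. No proteasome gene was called higher in any line, where 11.2%, 25.9% and 19.9% of all tested genes were, in the order HKC-8, RCC4, HepG2. At an unadjusted p under 0.05 the count of higher genes was also 0 in each line, as it was with DESeq2.

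The falls were small. The median log2 fold change of the tested proteasome genes was -0.36 over 44 in HKC-8, -0.16 over 46 in HepG2 and -0.19 over 44 in RCC4. The median of all tested genes lay at 0.0036, -0.0044 and -0.0018. The 3 hypoxic samples lay below the 3 normoxic samples, without overlap, for 31 of 44 tested genes in HKC-8 (19.5% of all tested genes), 37 of 44 in RCC4 (28.3%) and 25 of 46 in HepG2 (25.0%). The share of all counts that fell on the 49 genes, PSMC3IP included, went from 0.870% to 0.960% in normoxic HKC-8 samples to 0.641% to 0.764% in hypoxic ones. It went from 0.780% to 0.793% to 0.664% to 0.674% in RCC4, and from 0.850% to 0.929% to 0.728% to 0.751% in HepG2. The ranges did not overlap in any line. In bulk RNA, fewer cells that express a gene and less of its RNA per cell cannot be told apart.

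HKC-8 samples with the same replicate number deviated together (correlations of 0.176, 0.631 and 0.577). Normoxic replicate 1 correlated about as well with hypoxic replicate 2 (0.154), and the other unlike-numbered pairs lay between -0.587 and 0.0693. With the replicate number as a block, 38 of the 44 genes were called lower in HKC-8, none of them higher, against 21.6% of all tested genes. Without the block, the HKC-8 count fell to 8 when normoxic replicate 1 was left out, to 11 without normoxic replicate 2, to 10 without hypoxic replicate 1 and to 11 without hypoxic replicate 3. The HepG2 count fell to 12 without normoxic replicate 2, hypoxic replicate 1 or hypoxic replicate 2. In 1 fit of all 18 samples, in which the lines share 1 estimate of the spread, 15 genes were called in RCC4 and 34 in HKC-8.

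**Figure D1:**
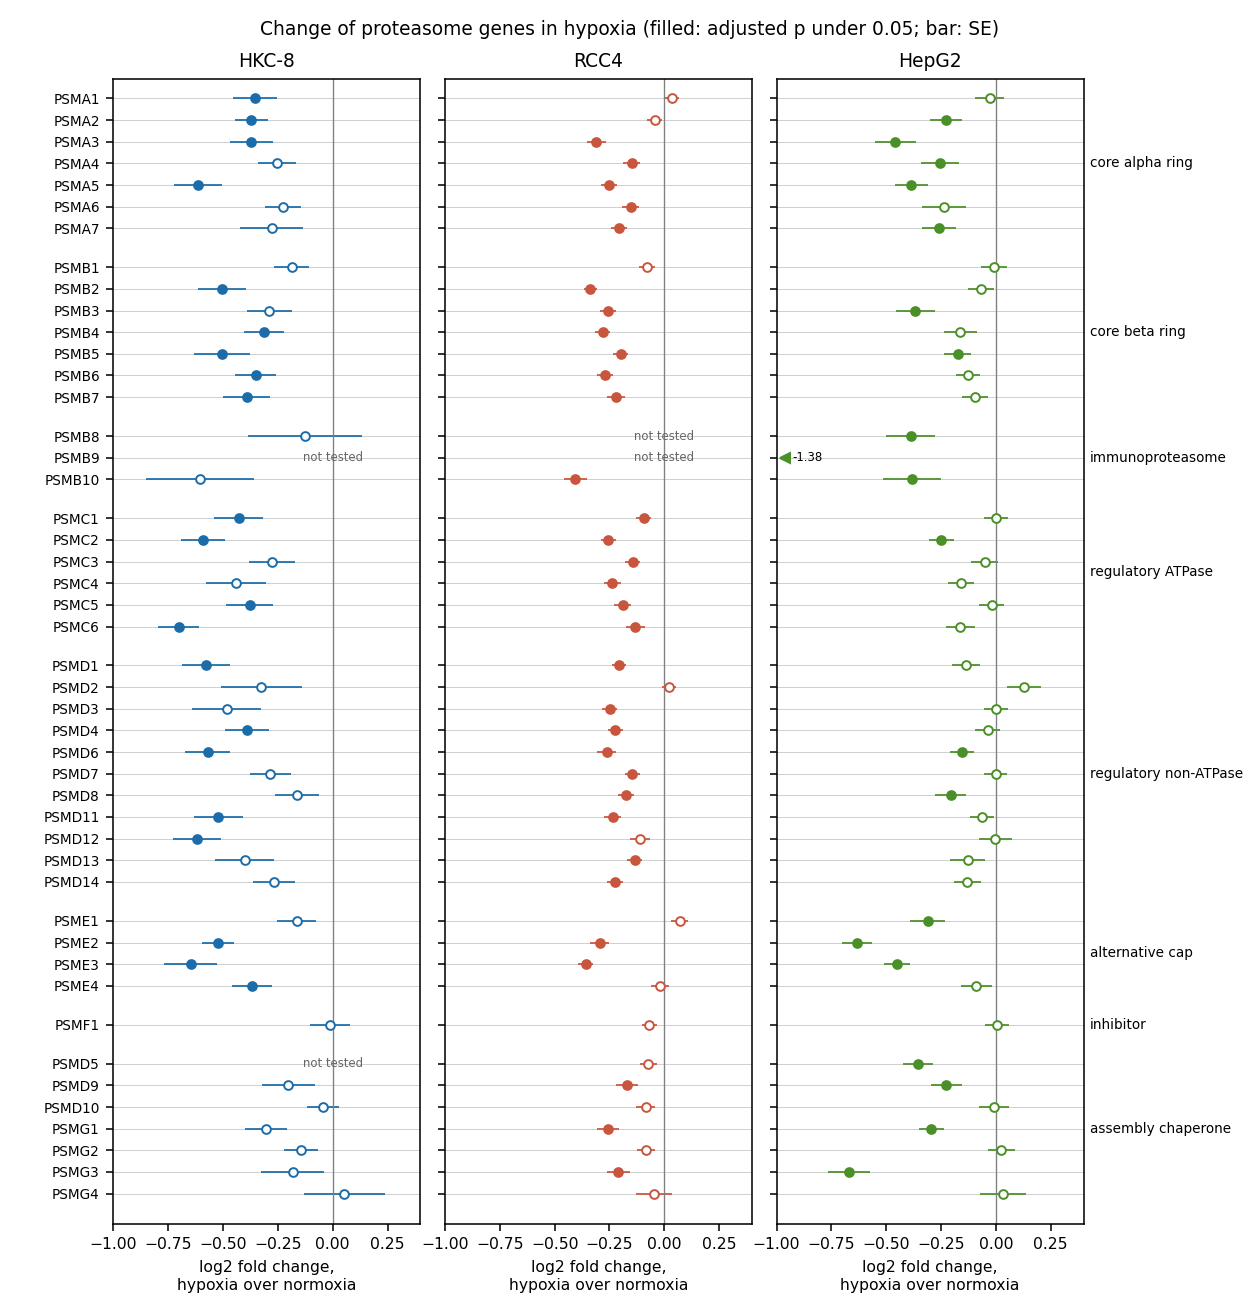
Log2 fold change of each proteasome gene in hypoxia over normoxia (horizontal axis, 3 against 3 samples) with its standard error (bar), for HKC-8, RCC4 and HepG2 in separate panels and with genes grouped by class. Filled points passed an adjusted p of 0.05, and all filled points lie below 0, at 21, 32 and 20 genes, with PSMB9 of HepG2 drawn at the edge at -1.38.

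Core particle transcripts fell in all 3 lines. Of the 14 core genes, 11 were called lower in RCC4, 9 in HKC-8 and 7 in HepG2, with medians of -0.21, -0.35 and -0.20. Of all tested genes, 24.2%, 9.12% and 19.2% were called lower in the same order. In HKC-8 all 14 were called lower with the replicate block, against 21.6% of all tested genes. Without it, the HKC-8 core count was 1 when normoxic replicate 1 was left out, 2 without hypoxic replicate 1 and 3 without normoxic replicate 2 or hypoxic replicate 3, and the HepG2 core count was 3 without normoxic replicate 2, hypoxic replicate 1 or hypoxic replicate 2 and 4 without hypoxic replicate 3. The RCC4 core count was 7 in 1 fit of all 18 samples. The α-ring had 4, 5 and 5 of its 7 genes called in HKC-8, RCC4 and HepG2, and the β-ring had 5, 6 and 2 of 7. Summed core CPM in hypoxia was 78.5% ± 8.56 (SD, n = 3) of the normoxic mean for HKC-8, 87.9% ± 1.36 for RCC4 and 86.8% ± 0.713 for HepG2, and the sums of hypoxic and normoxic samples did not overlap. The 2 tissue-restricted core genes, PSMA8 of the testis and PSMB11 of the thymus, had 0 counts in all 18 samples.

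PSMA3, PSMA5 and PSMB5 were the core genes called lower in every line. PSMA5, an α-ring subunit, measured 164, 160.4 and 138 CPM in the normoxic HKC-8 samples and 98.2, 114 and 88.6 CPM in the hypoxic ones. In RCC4 it went from 162, 168 and 166 to 135, 143 and 137 CPM, and in HepG2 from 220.0, 249 and 208 to 177, 164 and 179 CPM. Every hypoxic sample lay below every normoxic sample of its line, with log2 fold changes of -0.61 ± 0.11 (SE, adjusted p = 0.00636, edgeR), -0.25 ± 0.04 (adjusted p = 3.90e-06) and -0.39 ± 0.07 (adjusted p = 0.00119) in HKC-8, RCC4 and HepG2. PSMA3, another subunit of that ring, measured 195, 239.9 and 180.2 CPM in normoxic and 150.3, 154 and 145 CPM in hypoxic HepG2, the line in which it changed most (-0.46 ± 0.09, adjusted p = 0.00155). Its log2 fold change was -0.37 ± 0.10 in HKC-8 and -0.31 ± 0.04 in RCC4 (adjusted p = 0.03 and 3.50e-06).

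The 3 catalytic subunits of the constitutive core are PSMB5, PSMB6 and PSMB7, which cut after hydrophobic, acidic and basic residues. PSMB5, the main target of proteasome inhibitors used against myeloma, measured 247, 268 and 219.5 CPM in normoxic and 168, 204 and 145 CPM in hypoxic HKC-8. In RCC4 the values were 205, 214 and 217 against 180.3, 186 and 186 CPM, and in HepG2 589, 567 and 540.2 against 504, 484 and 515 CPM. Groups did not overlap in any line, and the log2 fold changes were -0.50 ± 0.13 (adjusted p = 0.0255, edgeR), -0.20 ± 0.04 (5.92e-05) and -0.17 ± 0.06 (0.0355) in the same order. PSMB6 measured 169.9, 191 and 181 CPM in normoxic and 132, 158 and 134 CPM in hypoxic HKC-8, 179.7, 193 and 180.2 and 148, 152 and 157 CPM in RCC4, and 150.4, 151 and 147 and 135, 138 and 138 CPM in HepG2. It was called lower in HKC-8 (-0.35 ± 0.09) and RCC4 (-0.27 ± 0.04) and not in HepG2 (-0.13 ± 0.05, adjusted p = 0.0826). PSMB7 measured 236, 248 and 208 CPM in normoxic and 182, 193 and 152 CPM in hypoxic HKC-8, 66.9, 68.7 and 66.4 and 57.4, 58.8 and 56.5 CPM in RCC4, and 129, 135 and 131 and 118, 124 and 128 CPM in HepG2. It followed the same pattern of calls, at -0.39 ± 0.11, -0.22 ± 0.04 and -0.09 ± 0.06 (adjusted p = 0.223 in HepG2).

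PSMB2, a non-catalytic β-ring subunit, fell in HKC-8 (-0.50 ± 0.11, adjusted p = 0.0145) and had the lowest log2 fold change of the core genes in RCC4. Its CPM in RCC4 went from 385, 389 and 377 to 305, 304 and 299 (log2 fold change -0.34 ± 0.03, adjusted p = 6.34e-09). In HepG2 its samples overlapped, at 221, 218 and 223 CPM in normoxia and 203, 203 and 225 CPM in hypoxia. PSMB1 was the only core gene called in no line, with log2 fold changes of -0.19, -0.08 and -0.01, although it was called in HKC-8 with the replicate block (adjusted p = 0.02).

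Regulatory particle transcripts fell in HKC-8 and RCC4, and few of them were called in HepG2. Of the 17 genes, 15 were called lower in RCC4, 9 in HKC-8 and 3 in HepG2, with medians of -0.19, -0.43 and -0.06. Of all tested genes, 24.2%, 9.12% and 19.2% were called lower in the same order. The HepG2 count was thus near the share of all tested genes. With the replicate block, all 17 were called lower in HKC-8, against 21.6% of all tested genes. Without it, the HKC-8 regulatory count was 5 when normoxic replicate 1 was left out and 14 without normoxic replicate 3 or hypoxic replicate 2, and the HepG2 count was 1 without normoxic replicate 1, hypoxic replicate 1 or hypoxic replicate 2 and 6 without normoxic replicate 3. Their summed CPM in hypoxia was 74.4% ± 10.5 (SD, n = 3) of the normoxic mean for HKC-8, 90.5% ± 0.649 for RCC4 and 95.8% ± 3.43 for HepG2. In 1 fit of all 18 samples the regulatory counts were 5 in RCC4, 15 in HKC-8 and 1 in HepG2, which turns the order of RCC4 and HKC-8. The hypoxic and normoxic sums overlapped in no line but HepG2, where they ran from 2836 to 3034 CPM in hypoxia and from 2996 to 3098 CPM in normoxia. In HepG2 the core thus had 7 of 14 genes called lower and the regulatory particle 3 of 17 (PSMC2, PSMD6 and PSMD8), and that difference between the particles was not tested.

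Among the ATPases, which form the ring that threads the substrate into the core, all 6 were called lower in RCC4, 4 in HKC-8 and 1 in HepG2. Beside them, 24.2%, 9.12% and 19.2% of all tested genes were called lower, and the HepG2 count was near that share. PSMC2 was the ATPase called in all lines. It measured 239, 227 and 206 CPM in normoxic and 156, 159.8 and 129 CPM in hypoxic HKC-8, 228, 228 and 229 and 189, 193 and 190.4 CPM in RCC4, and 143, 148 and 139 and 116, 122 and 123 CPM in HepG2. Its samples did not overlap in any line, and its log2 fold changes were -0.59 ± 0.10, -0.26 ± 0.03 and -0.25 ± 0.06 (adjusted p = 0.00521, 8.99e-07 and 0.00415, edgeR). PSMC6 had the lowest log2 fold change of all proteasome genes in HKC-8, -0.70 ± 0.10 (adjusted p = 0.00195), from 236, 215 and 193 to 137, 138 and 120.5 CPM. In RCC4 it was at 94.0, 94.5 and 90.7 and 81.1, 88.6 and 84.3 CPM (-0.13 ± 0.04, adjusted p = 0.0116) and in HepG2 at 149.9, 171 and 149 and 139.7, 141 and 140.5 CPM (-0.16 ± 0.07, adjusted p = 0.0717).

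Of the 11 non-ATPase subunits, 9 were called lower in RCC4, 5 in HKC-8 and 2 in HepG2. The shares of all tested genes called lower were 24.2%, 9.12% and 19.2%, and the HepG2 count was near its share. PSMD6, a subunit of the lid that holds the deubiquitinating enzyme, was the one called in all lines. It went from 161, 146 and 125 to 96.1, 104 and 89.8 CPM in HKC-8, from 66.9, 65.7 and 67.4 to 56.2, 56.3 and 53.8 CPM in RCC4 and from 87.9, 88.2 and 91.5 to 78.4, 80.8 and 81.5 CPM in HepG2. These are log2 fold changes of -0.57 ± 0.10, -0.26 ± 0.04 and -0.15 ± 0.06, of which the HepG2 value passed narrowly (adjusted p = 0.0427). PSMD12, another lid subunit, fell in HKC-8 from 186, 178 and 143 to 112, 116 and 101 CPM (-0.62 ± 0.11, adjusted p = 0.00622). In RCC4 it measured 74.3, 68.2 and 65.2 CPM in normoxia and 64.0, 64.2 and 63.5 CPM in hypoxia (adjusted p = 0.0519), and in HepG2 114, 109.8 and 135 and 114, 119 and 125 CPM, with overlapping samples and a log2 fold change of -0.0036 ± 0.07. PSMD14, the deubiquitinating enzyme of the lid, was called in RCC4 (-0.23 ± 0.04) and, with the block, in HKC-8 (-0.27 ± 0.10 without it, adjusted p = 0.0823 and 0.0031). PSMD2, a scaffold of the base, was called in no line, with -0.33, 0.02 and 0.13, and became the 1 called higher gene in HepG2 when normoxic replicate 3 was left out (0.19, adjusted p = 0.0391). In HKC-8 it was called lower with the block (adjusted p = 0.000953).

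Of the immunoproteasome genes, those encoded in the MHC region, PSMB8 and PSMB9, had low levels in HepG2, while PSMB10 was expressed in all 3 lines. PSMB8 was lower still in HKC-8, with 52 to 91 counts per sample, and absent from the RCC4 counts. PSMB9 had few counts in most HKC-8 and RCC4 libraries. PSMB8 measured 0.767, 0.764 and 1.00 CPM in normoxic and 0.652, 0.777 and 0.884 CPM in hypoxic HKC-8, had 0 counts in all 6 RCC4 samples, and measured 11.0, 11.5 and 9.19 CPM in normoxic and 8.40, 8.23 and 7.55 CPM in hypoxic HepG2. In HepG2 the hypoxic samples lay below the normoxic ones (-0.39 ± 0.11, adjusted p = 0.0146), and in HKC-8 they overlapped (-0.13 ± 0.26, adjusted p = 0.764). Against the floor of 3 counts per library in RCC4, 0.0702 CPM, normoxic PSMB8 was at least 12-fold higher in HKC-8 and at least 150.2-fold higher in HepG2.

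PSMB9 was tested only in HepG2, where it had the lowest log2 fold change of any proteasome gene, -1.38 ± 0.25 (adjusted p = 0.000683, edgeR). Its counts there were 116, 100 and 70 in normoxia and 40, 31 and 35 in hypoxia, or 2.63, 2.24 and 1.67 and 0.952, 0.673 and 0.905 CPM. HKC-8 gave 75, 4 and 4 counts in normoxia and 0, 1 and 2 in hypoxia, and RCC4 3, 57 and 7 in normoxia and 8, 11 and 2 in hypoxia. A single normoxic library thus held most of the PSMB9 counts in HKC-8 and in RCC4, and without it the normoxic values lay at or under 7 counts.

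PSMB10 had the highest normoxic level per length of the 3 genes, at 12.9, 36.6 and 20.2 CPM per kb in HKC-8, RCC4 and HepG2. It went from 16.3, 13.2 and 8.26 to 8.16, 10.0 and 6.52 CPM in HKC-8, from 34.6, 36.7 and 35.8 to 26.8, 27.6 and 26.2 CPM in RCC4 and from 19.8, 24.0 and 15.4 to 15.2, 14.6 and 15.8 CPM in HepG2. The log2 fold change was -0.41 ± 0.05 in RCC4 (adjusted p = 1.27e-06), the lowest of any proteasome gene in that line, and -0.38 ± 0.13 in HepG2 (adjusted p = 0.0352), where the samples overlapped. In HKC-8 it was -0.61 ± 0.24 (adjusted p = 0.11), with overlapping samples, and it passed the test with the replicate block (adjusted p = 0.00545).

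Set against the constitutive subunit that each replaces, per kilobase of transcript, each immunoproteasome subunit lay below its constitutive counterpart. Normoxic PSMB8 was 0.326% ± 0.0856 (SD, n = 3) of PSMB5 in HKC-8 and 1.73% ± 0.149 in HepG2. PSMB9 was 1.18% ± 0.247 of PSMB6 in normoxic and 0.500% ± 0.0924 in hypoxic HepG2. PSMB10 was 5.44% ± 1.48 of PSMB7 in normoxic HKC-8, 53.5% ± 1.18 in RCC4 and 15.1% ± 3.01 in HepG2, and 4.70% ± 0.487, 47.0% ± 0.317 and 12.4% ± 0.543 in hypoxia. The high RCC4 ratio goes with a low level of PSMB7 there as well as a high level of PSMB10. With 3 samples against 3, an exact permutation test (two-sided) cannot go below 0.1, the value found for PSMB10 to PSMB7 in RCC4, for PSMB9 to PSMB6 and PSMB8 to PSMB5 in HepG2 and for PSMB9 to PSMB6 in HKC-8, so none of the 8 ratios tested could pass.

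**Figure D2:**
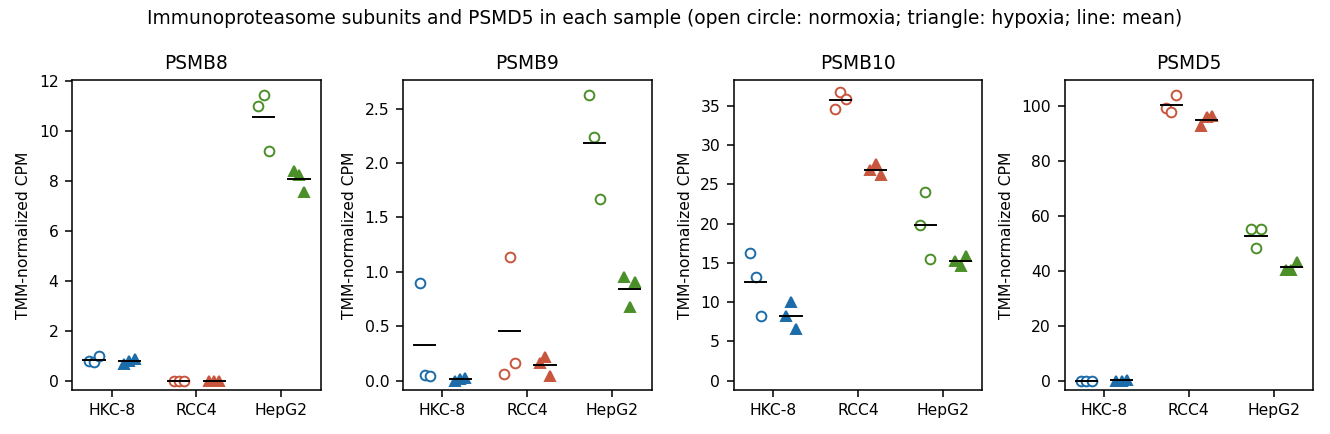
TMM-normalised CPM (vertical axis, a separate scale per gene) of PSMB8, PSMB9, PSMB10 and PSMD5 in every sample. Open circles are normoxic and triangles hypoxic samples, and lines are means of 3. PSMB8 sits at 0 in all RCC4 samples and PSMD5 sits at or under 0.0848 CPM in all HKC-8 samples.

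PSMB8, PSMB9 and the peptide transporter genes TAP1 and TAP2 lie side by side in the MHC region of chromosome 6 (PSMB8 at 32808494 to 32812456, minus strand, GRCh37). TAP1 was also at 0 counts in all RCC4 samples, with 0.277 ± 0.0685 CPM in normoxic HKC-8 and 14.6 ± 0.320 CPM in normoxic HepG2, and TAP2 at 0.358 ± 0.290, 3.27 ± 0.253 and 15.7 ± 0.200 CPM in RCC4, HKC-8 and HepG2. The same order held for BRD2, a broadly expressed chromatin reader nearby on the same arm, at 2.73 ± 1.05, 17.3 ± 1.89 and 52.0 ± 0.721 CPM. The authors kept only fragments that mapped uniquely, and whether their index held alternative MHC haplotypes is not given in the sources used here, so lost reads and absent transcripts in this region cannot be told apart. PSMB8 and PSMB9 also overlap each other and an antisense gene on the annotation, and the strand setting of the counting is likewise not given. PSMB10 lies on chromosome 16, outside the region, and was expressed in all lines.

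The alternative caps sit on the core in place of the regulatory particle, and 3, 2 and 3 of the 4 were called lower in HKC-8, RCC4 and HepG2. In the same order, 9.12%, 24.2% and 19.2% of all tested genes were called lower, and with 4 genes these counts rest on few calls. PSME1 and PSME2 form the interferon-inducible cap, and they changed unequally although they lie close together on chromosome 14. PSME2 measured 79.0, 82.4 and 87.4 CPM in normoxic and 56.9, 58.9 and 57.1 CPM in hypoxic HKC-8. It measured 95.7, 97.04 and 98.6 and 76.4, 82.6 and 77.4 CPM in RCC4, and 256, 252 and 217 and 160.2, 152 and 156 CPM in HepG2. Its log2 fold changes were -0.52 ± 0.07, -0.30 ± 0.04 and -0.63 ± 0.07 (adjusted p = 0.00225, 2.90e-06 and 1.20e-05, edgeR), with no overlap between groups in any line. PSME1 measured 91.4, 90.0 and 102 against 79.7, 80.5 and 91.9 CPM in HKC-8, 163, 174 and 181 against 182, 177 and 183 CPM in RCC4 and 276, 297 and 236 against 228, 212 and 212 CPM in HepG2. It was called lower in HepG2 (-0.31 ± 0.08, adjusted p = 0.00777) and was not called in HKC-8 (-0.16 ± 0.09, adjusted p = 0.214, and 0.0307 with the block) or RCC4 (0.07 ± 0.04, adjusted p = 0.152). Without normoxic replicate 3, PSME1 was called higher in RCC4 (0.10, adjusted p = 0.0378). PSME2 has 6 named pseudogenes, and how its reads divide among them was not tested.

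PSME3, the nuclear cap that drives degradation without ubiquitin, had the second-lowest log2 fold change in HKC-8 and in RCC4. It went from 318, 328 and 254 to 185, 216 and 172 CPM in HKC-8, from 281, 285 and 283 to 216, 223 and 219 CPM in RCC4 and from 305, 294 and 321 to 216, 223 and 235 CPM in HepG2. The samples did not overlap in any line, with log2 fold changes of -0.65 ± 0.12, -0.36 ± 0.03 and -0.45 ± 0.06 (adjusted p = 0.00741, 3.70e-09 and 5.98e-05). PSME4, the cap linked to histone turnover, was called in HKC-8 (-0.37 ± 0.09) and not in RCC4 (-0.02 ± 0.04) or HepG2 (-0.09 ± 0.07). PSMF1, an inhibitor of the core in vitro, was called in no line, at -0.01 ± 0.09, -0.07 ± 0.03 and 0.01 ± 0.06, and PSMC3IP, the gene that only shares the name, was at -0.06 ± 0.12, -0.05 ± 0.14 and -0.24 ± 0.11.

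Fewer assembly chaperones were called in HKC-8 than in the other lines, a difference that was not tested. The share of all tested genes called lower was also smallest in HKC-8, at 9.12%, against 24.2% in RCC4 and 19.2% in HepG2. In HKC-8 none of the 6 tested was called by edgeR (1 at an unadjusted p under 0.05, 1 with DESeq2, and 2, PSMG1 and PSMD9, with the replicate block). In RCC4, 3 of 7 were called lower (PSMG1, PSMG3 and PSMD9), and in HepG2 4 of 7 (the same 3 genes and PSMD5). PSMG3, which helps to build the α-ring, had the largest change of this class, in HepG2, from 27.0, 31.5 and 24.6 to 17.7, 17.3 and 17.1 CPM (-0.67 ± 0.10, adjusted p = 0.000113). Its values were 36.4, 34.9 and 36.5 and 29.9, 30.5 and 32.5 CPM in RCC4 (-0.21 ± 0.05) and overlapped in HKC-8, at 13.7, 16.7 and 14.3 and 11.8, 15.7 and 11.8 CPM (-0.18 ± 0.14, adjusted p = 0.405). PSMG2, PSMG4 and PSMD10 were called in no line. Summed chaperone CPM fell to 88.1% ± 3.79, 91.5% ± 1.64 and 87.1% ± 0.618 (SD, n = 3) of the normoxic mean in HKC-8, RCC4 and HepG2.

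PSMD5, a chaperone that holds back the ATPase ring during assembly, was close to absent in HKC-8. Its counts there were 2, 2 and 1 in normoxia and 1, 0 and 7 in hypoxia, out of the deepest libraries of the study. RCC4 had 99.3, 97.7 and 104 CPM in normoxia and 92.6, 96.1 and 96.5 CPM in hypoxia, and HepG2 55.1, 48.1 and 55.1 and 40.3, 40.4 and 43.0 CPM. The pooled normoxic counts, 14399 in RCC4 and 6889 in HepG2 against 5 in HKC-8, give ratios of 5120 (95% exact interval 2194 to 15771) and 2693 (1153 to 8297), and these intervals cover counting error only. The gene lies at chr9:123577774-123605229 on the minus strand (GRCh37), overlaps no other annotated exon and has no named pseudogene. The genes on either side were well expressed in HKC-8, with FBXW2 at 122 ± 4.77 CPM and PHF19 at 93.7 ± 2.80 CPM (SD, n = 3). In HepG2 PSMD5 was called lower in hypoxia (-0.36 ± 0.07, adjusted p = 0.00126) and in RCC4 it was not (-0.07 ± 0.04, adjusted p = 0.137).

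The hypoxia response of single genes was then compared between lines, as an interaction in 12-sample fits. HepG2 minus HKC-8 gave 6 called genes of 46, all with a smaller fall in HepG2, against 9.30% of all tested genes called in either direction and 5.02% in this one. They were PSMD12 (0.62 ± 0.15, adjusted p = 0.0146, edgeR), PSMC6 (0.55 ± 0.12, adjusted p = 0.00993), PSMD11, PSMC1, PSMD6 and PSMB2. Of these 6, 5 belong to the regulatory particle. With the replicate block, 19 genes were called, among them 13 of the 17 regulatory particle genes and 4 of the 14 core genes. The share of all tested genes called with the block was not computed for the interactions. Their blocked counts therefore cannot be read against the shares given here, which come from fits without the block. RCC4 minus HKC-8 gave 5 called genes, all with a higher log2 fold change in RCC4, against 15.2% of all tested genes in either direction and 7.87% in this one, and 20 with the block. They were PSMC6 (0.55 ± 0.10, adjusted p = 0.00312), PSMD12 (0.49 ± 0.12, adjusted p = 0.0157), PSMA1, PSME4 and PSMA2.

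RCC4 minus HepG2 gave 7 called genes, against 22.6% of all tested genes in either direction, 10.9% higher and 11.7% lower. PSMG3, PSME1, PSME2 and PSMD5 had a higher log2 fold change in RCC4 (0.45 ± 0.11, 0.37 ± 0.10, 0.33 ± 0.08 and 0.27 ± 0.08), and PSMB2, PSMD3 and PSMD4 a lower one (-0.28 ± 0.06, -0.26 ± 0.06 and -0.20 ± 0.06). Counted in either direction, the share called was above that of all tested genes for HepG2 minus HKC-8 (6 of 46) and below it for RCC4 minus HKC-8 (5 of 46) and RCC4 minus HepG2 (7 of 46). In the one direction in which the genes of the first 2 comparisons were called, both shares were above that of all tested genes. That direction was taken from these same calls, so the share in it is a description and no test of a difference between lines. For HepG2 minus HKC-8 the count was 14 without HKC-8 hypoxic replicate 2, 10 without HKC-8 normoxic replicate 3, 3 without HKC-8 hypoxic replicate 1 and 2 without any other single library but HepG2 normoxic replicate 3. For RCC4 minus HKC-8 it was 13 and 12 without the same first 2 libraries, and 3 without HKC-8 normoxic replicate 1 or any RCC4 library but normoxic replicate 3. For RCC4 minus HepG2 it stayed between 6 and 10. The 3 comparisons share samples, and in those with RCC4 the exposure differs by the labels.

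In normoxia the lines differed in most proteasome genes, as they did in most genes. Of 46 tested genes, 36 differed between HepG2 and HKC-8 (82.2% of all tested genes), 37 between RCC4 and HKC-8 (85.0%) and 43 between HepG2 and RCC4 (87.1%). Per kilobase of transcript, the median normoxic level of the α-ring genes was 192, 146 and 177 CPM per kb in HKC-8, RCC4 and HepG2, and that of the β-ring 234, 224 and 234 CPM per kb. The ATPases had medians of 91.0, 71.2 and 77.2 and the non-ATPase subunits 110.3, 94.9 and 100.6 CPM per kb. Assembly chaperones had medians of 20.4, 27.8 and 19.4 CPM per kb, and immunoproteasome subunits 0.751, 0.444 and 9.38 CPM per kb. These levels use the length of 1 canonical transcript per gene, so a gene with a long form that is little used is understated.

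**Figure D3:**
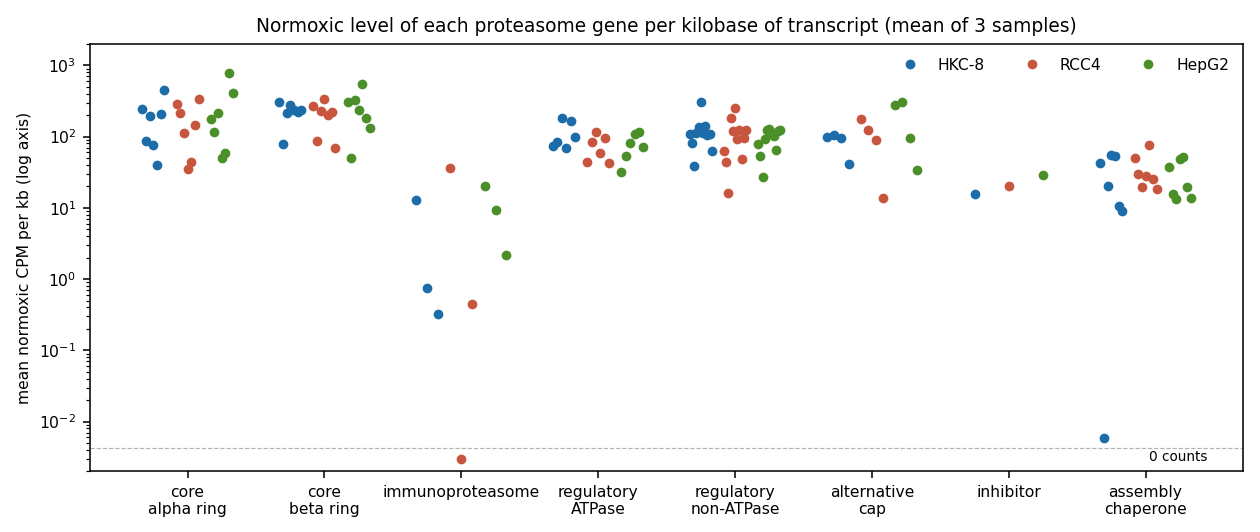
Mean normoxic level of each proteasome gene in CPM per kb of canonical transcript (vertical log axis; n = 3 samples), with 1 point per gene in each class and line. Core and regulatory genes lie between 15.9 and 785 CPM per kb in every line, while PSMB8 and PSMB9 lie lower and PSMB10 lies between 12.9 and 36.6. PSMB8 of RCC4 has 0 counts (below the dashed line) and PSMD5 of HKC-8 lies at 0.00588 CPM per kb.

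Several core genes differed between the lines. PSMA6, an α-ring gene, measured 780.4, 947 and 681 CPM in normoxic HepG2 against 224, 209.9 and 194 in HKC-8 and 144, 147 and 156 in RCC4 (log2 fold change 1.96 ± 0.12 and 2.41 ± 0.10 for HepG2 over each). PSMB7 was low in RCC4 (-1.77 ± 0.07 against HKC-8), and PSMA2 was high there (1.31 ± 0.06). PSMB5 was higher in HepG2 than in HKC-8 (1.23 ± 0.09) and RCC4 (1.39 ± 0.06), whereas the catalytic PSMB7 was lower in HepG2 than in HKC-8 (-0.78 ± 0.09).

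Regulatory genes were mostly lower in HepG2 and RCC4 than in HKC-8. Of 17, 12 were lower and 2 higher in HepG2 (39.8% and 42.4% of all tested genes), and 13 lower and 2 higher in RCC4 (43.6% and 41.3%). The lowest values were those of PSMC1 (-1.23 ± 0.10), PSMD2 (-1.22 ± 0.13) and PSMC3 (-1.15 ± 0.08) in HepG2 against HKC-8. Between HepG2 and RCC4, 9 of the 17 were higher in HepG2 and 6 lower (45.8% and 41.3% of all tested genes), with a median log2 fold change of 0.22. The lowest values there among all proteasome genes were those of PSMD2 (-1.03 ± 0.06), PSMD13 (-1.01 ± 0.08) and the chaperone PSMD5 (-0.95 ± 0.06). PSMC1 shares 76.1% of its exon bases, taken over all its annotated transcripts, with the gene NRDE2 and has 13 named pseudogenes, so its level is uncertain. Of all 49 members, 24 share exon bases with another annotated gene and 17 have a named pseudogene.

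The interferon-inducible set did not follow a single order. PSMB8 and PSMB9 were higher in HepG2 than in HKC-8 (3.66 ± 0.19 and 2.75 ± 0.74), and PSME1 and PSME2 also (1.54 ± 0.10 and 1.57 ± 0.09). The size of the PSMB9 value depended on 1 library, and it was 5.50 without HKC-8 normoxic replicate 1, which held 75 of that group's counts. PSMB10 was highest in RCC4 (1.52 ± 0.19 over HKC-8, with HepG2 at -0.88 ± 0.12 against RCC4). NLRC5, the activator of MHC class I genes, measured 28.9 ± 2.07 CPM in normoxic HKC-8, 15.3 ± 1.19 CPM in RCC4 and 5.15 ± 0.681 CPM in HepG2 (SD, n = 3). It comes from the list on class I antigen processing, and its normoxic level was chosen for mention after it was seen.

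Genes that work beside the proteasome were called in both directions, and their counts are read against the shares of all tested genes called higher and lower, 11.2% and 9.12% in HKC-8, 25.9% and 24.2% in RCC4 and 19.9% and 19.2% in HepG2. Of 12 partners outside the name rule, 2 were called lower and 0 higher in HKC-8 by edgeR (0 higher also at an unadjusted p under 0.05 and with DESeq2). In RCC4, 5 were called lower and 1 higher, and in HepG2 3 lower and 1 higher. With 12 genes, the share called lower rests on few calls in each line. Its difference from the share of all tested genes was not tested. The largest changes were in TXNL1, a thioredoxin-like protein bound to the regulatory particle, in HKC-8 (-0.41 ± 0.10), in KIAA0368, the proteasome adaptor also known as ECM29, in RCC4 (0.40 ± 0.04) and in UBLCP1, a proteasome phosphatase, in HepG2 (-0.33 ± 0.07). POMP, which matures the core, fell in HKC-8 (-0.34 ± 0.09) and RCC4 (-0.12 ± 0.04). Of 16 genes of ubiquitin supply and shuttling, none was called in HKC-8 in either direction (4 lower and 0 higher at an unadjusted p under 0.05, and 1 lower and 0 higher with DESeq2), 6 were lower and 3 higher in RCC4, and 4 lower and 1 higher in HepG2. UBA6, a ubiquitin-activating enzyme, changed most in RCC4 (0.39 ± 0.04), and SQSTM1, an autophagy receptor for ubiquitinated cargo, in HepG2 (-0.96 ± 0.09). Of the tested genes of p97 and ER-associated degradation, 2 of 16 rose and 2 fell in HKC-8, 5 of 16 rose and 6 fell in RCC4, and 4 of 15 rose and 2 fell in HepG2, led by EDEM1 in HKC-8 (0.63 ± 0.07) and RCC4 (0.47 ± 0.04) and by DERL2 in HepG2 (-0.32 ± 0.08).

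Transcripts of NFE2L1, the factor known to activate subunit genes, rose in every line. NFE2L1 went from 235 ± 4.86 to 326 ± 11.7 CPM in HKC-8 (0.48 ± 0.07, adjusted p = 0.00308), from 154 ± 9.0 to 178 ± 8.22 CPM in RCC4 (0.22 ± 0.04, adjusted p = 0.000147) and from 272 ± 13.4 to 577 ± 17.0 CPM in HepG2 (1.08 ± 0.06, adjusted p = 1.46e-08, edgeR; SD, n = 3). Its partner MAFF rose in HKC-8 (1.36 ± 0.24), RCC4 (0.68 ± 0.08) and HepG2 (0.98 ± 0.11), and so did BACH1, a repressor at the same DNA element (0.62 ± 0.09, 0.60 ± 0.05 and 0.57 ± 0.07). GCLM and NQO1, antioxidant targets of the related factor NFE2L2, fell in each line (-0.99 ± 0.12, -0.29 ± 0.04 and -0.75 ± 0.08 for GCLM). Over the 14 genes of this list, 4 rose and 3 fell in HKC-8, 4 rose and 8 fell in RCC4, and 5 rose and 6 fell in HepG2. Of all tested genes, 11.2% were called higher and 9.12% lower in HKC-8, 25.9% and 24.2% in RCC4, and 19.9% and 19.2% in HepG2. Transcript level does not give the amount of processed NFE2L1 protein, and its part in the change of the subunits was not tested.

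The class I antigen processing list was mixed as well, with 1 of 15 genes called higher and none lower in HKC-8 (2 lower at an unadjusted p under 0.05 and 1 with DESeq2), 6 of 13 higher and 3 lower in RCC4, and 3 of 15 higher and 4 lower in HepG2. The largest changes were in ERAP1, a peptide-trimming enzyme, in HKC-8 (0.33 ± 0.10) and in TAP2 in HepG2 (-0.62 ± 0.09). In HepG2 TAP1 (-0.44 ± 0.09), TAP2 and B2M (-0.38 ± 0.07) fell, as did PSMB8, PSMB9, PSME1 and PSME2. The list as a whole did not fall there, with 3 genes called higher and a median log2 fold change of 0.036. Of the VHL ligase and HIF genes, 4 of 11 rose and 2 fell in HKC-8, 2 of 10 rose and 3 fell in RCC4, and 3 of 11 rose and 4 fell in HepG2. Both lists stand beside shares of all tested genes called higher and lower of 11.2% and 9.12% in HKC-8. These shares were 25.9% and 24.2% in RCC4 and 19.9% and 19.2% in HepG2. HIF1A fell in HKC-8 (-1.16 ± 0.08) while EPAS1, which encodes HIF-2α, rose (1.23 ± 0.12). The oxygen-sensing hydroxylases EGLN1 and EGLN3 rose in HKC-8 (1.12 ± 0.08 and 2.38 ± 0.18) and HepG2 (1.42 ± 0.09 and 5.30 ± 0.24), and EGLN1 in RCC4 (0.80 ± 0.03).

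NFE2L1 and small MAF proteins bind the antioxidant response element, searched here as TGACNNNGC on both strands in the 250 bases before each start. RefSeq promoters (GRCh38.p14) matched 42 of the 48 proteasome genes. The element was found in 11 of the 42 (26.2%) and in 3013 of all 27305 promoters (11.0%). Of the core ring and regulatory particle genes with a promoter, only PSMB3, PSMD3 and PSMD12 held it. The other matches were in caps (PSME1, PSME2 and PSME4), chaperones (PSMD5, PSMD9, PSMG1 and PSMG2) and PSMB9. The pooled share therefore does not describe the core and regulatory genes. The core of the HIF site occurred at the background share, as ACGTG in 8 of 42 (19%, against 18.7% of all) and as GCGTG in 13 (31.0%, against 31.9%). A match is a description of letters, and members were not compared by it. Of the genes called lower in all lines, PSME2 held the element. The upstream 250 bases of 4 genes are shown with the element in capitals: PSME2, called in all lines, PSMD12 and PSMC6, which set HKC-8 apart from HepG2 and of which PSMC6 has no match, and PSMD5, which was nearly silent in HKC-8 despite expressed neighbours.
PSME2, chr14:24146611-24146860, minus strand: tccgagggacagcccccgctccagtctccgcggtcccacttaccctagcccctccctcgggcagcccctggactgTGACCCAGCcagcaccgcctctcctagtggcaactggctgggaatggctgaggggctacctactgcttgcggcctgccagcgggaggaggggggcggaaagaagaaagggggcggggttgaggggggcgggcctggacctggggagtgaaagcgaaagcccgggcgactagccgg
PSMD12, chr17:67366578-67366827, minus strand: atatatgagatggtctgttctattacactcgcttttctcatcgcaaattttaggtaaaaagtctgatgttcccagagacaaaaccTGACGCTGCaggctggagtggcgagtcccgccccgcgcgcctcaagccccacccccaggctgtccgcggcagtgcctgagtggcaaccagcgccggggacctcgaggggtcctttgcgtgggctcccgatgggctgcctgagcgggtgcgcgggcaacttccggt
PSMC6, chr14:52706950-52707199, plus strand: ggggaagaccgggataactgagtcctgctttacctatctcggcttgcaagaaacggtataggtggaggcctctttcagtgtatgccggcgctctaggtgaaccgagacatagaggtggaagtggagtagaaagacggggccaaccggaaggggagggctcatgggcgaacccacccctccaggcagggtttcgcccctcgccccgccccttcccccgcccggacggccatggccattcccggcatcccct
PSMD5, chr9:120842923-120843172, minus strand: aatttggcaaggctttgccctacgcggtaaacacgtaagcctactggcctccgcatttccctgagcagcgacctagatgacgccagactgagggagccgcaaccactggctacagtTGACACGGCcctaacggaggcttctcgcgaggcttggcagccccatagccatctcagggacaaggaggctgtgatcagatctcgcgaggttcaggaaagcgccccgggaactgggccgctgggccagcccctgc
The PSMD5 stretch holds 16 CpG dinucleotides, against a median of 11 over all promoters of this length and 19 over the proteasome promoters.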

How the data were processed

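PolyA+ RNA of 18 samples was sequenced after ScriptSeq v2 library preparation. Per the submitters' processing notes and the methods text, reads were trimmed with Trim Galore 0.3.3, aligned to GRCh37 with TopHat 2.0.8b and Bowtie 1.0.0, filtered for unique mapping with SAMtools 0.1.19 and counted with HTSeq 0.5.4p3 (intersection-strict) over UCSC genes. The deposited values are raw counts per gene, not normalised by the authors. The strand setting is not given in the sources used here.

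Counts were analysed with edgeR 4.0.16 in R 4.3.3: filterByExpr, TMM factors and the quasi-likelihood test, fitted per line across all genes, p-values being adjusted by Benjamini-Hochberg over all tested genes and called under 0.05. Standard errors are the absolute log2 fold change divided by the square root of F. Interactions used 12 samples and normoxic comparisons 6. Printed CPM used factors from all 18 samples. Lengths, overlaps and coordinates came from GENCODE on GRCh37, and promoters from RefSeq. The test was checked on simulated counts. DESeq2 1.42.0, other factors and filters, 1 fit of all 18 samples, a replicate block and leaving out each library were tried.

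Replicate numbers come from the labels. In HKC-8 every same-numbered pair correlated above 0.1 (0.176, 0.631 and 0.577), so those numbers were taken as pairs and blocked values stand beside HKC-8 results. Normoxic replicate 1 also passed 0.1 with hypoxic replicate 2 (0.154), so the first pair is not set apart by its number. No 2 libraries of a group agreed within sampling noise (chi-square per degree of freedom 4.57 to 91.5). Named were PSMB5 to PSMB10, PSME1, PSME2, the 3 called genes with the largest change in each direction per comparison, genes called alike in all lines and genes that were not tested, other genes being named after their values were seen. The members and lists were chosen with earlier results of these data known. Some genes of the lists are not reported here by name.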

Additional observations from a re-analysis of the deposited data

Results flagged for a closer look

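Responses that differed between lines in 12-sample interaction fits are listed here, each as the log2 fold change of the first line minus that of the second, with its SE and adjusted p from edgeR. Beside them, 9.30%, 15.2% and 22.6% of all tested genes were called for HepG2 minus HKC-8, RCC4 minus HKC-8 and RCC4 minus HepG2.

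HepG2 minus HKC-8 was 0.44 ± 0.13 for PSMB2 (adjusted p = 0.0488) and 0.43 ± 0.13 for PSMC1 (0.0491), both close to the threshold. It was 0.55 ± 0.12 for PSMC6 (0.00993), 0.46 ± 0.13 for PSMD11 (0.0382), 0.62 ± 0.15 for PSMD12 (0.0146) and 0.42 ± 0.12 for PSMD6 (0.043). All 6 genes fell in HKC-8 by more than in HepG2.

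RCC4 minus HKC-8 was 0.37 ± 0.10 for PSMA1 (adjusted p = 0.0274), 0.31 ± 0.08 for PSMA2 (0.0155), 0.55 ± 0.10 for PSMC6 (0.00312), 0.49 ± 0.12 for PSMD12 (0.0157) and 0.33 ± 0.10 for PSME4 (0.032). PSMC6 and PSMD12 thus differed between HKC-8 and both other lines, which share the HKC-8 samples.

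RCC4 minus HepG2 was -0.28 ± 0.06 for PSMB2 (adjusted p = 0.00426), -0.26 ± 0.06 for PSMD3 (0.00369) and -0.20 ± 0.06 for PSMD4 (0.0299), each lower in RCC4. It was 0.27 ± 0.08 for PSMD5 (0.016), 0.37 ± 0.10 for PSME1 (0.00882), 0.33 ± 0.08 for PSME2 (0.00734) and 0.45 ± 0.11 for PSMG3 (0.0057), each higher in RCC4. By the labels, RCC4 also differed from the other lines in oxygen and duration, which cannot be told apart from the line.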

How the results depend on the processing

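No alternative turned the direction of a count: no proteasome gene was called higher, except 1 in RCC4 and 1 in HepG2 when normoxic replicate 3 of the line was left out (range 0 to 1 in both). In 1 fit of all 18 samples the genes called lower were 34 in HKC-8 (15 of the regulatory particle), 15 in RCC4 (7 core, 5 regulatory) and 13 in HepG2 (1 regulatory), and the interactions had 14 genes for HepG2 minus HKC-8, 8 for RCC4 minus HKC-8 and 2 for RCC4 minus HepG2. That fit shares 1 estimate of the spread among lines. With the replicate block, HKC-8 had 38 genes lower (14 core, 17 regulatory), HepG2 minus HKC-8 19 and RCC4 minus HKC-8 20. For the blocked interactions the share of all tested genes called was not computed. In HepG2 and RCC4 the numbers were not taken as pairs, since same-number correlations were 0.231, 0.0546 and 0.226 in HepG2, where every sample correlated best with its own number, and -0.0065, 0.024 and 0.033 in RCC4. The block gave 23 lower in HepG2, 5 of them regulatory, and 33 in RCC4. DESeq2 called 10, 9 and 11 genes in the interactions (HepG2 minus HKC-8, RCC4 minus HKC-8, RCC4 minus HepG2), and no filter on low counts gave 8 for RCC4 minus HKC-8.

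Leaving out 1 library gave 8 to 30 genes lower in HKC-8 (core 1 to 11, regulatory 5 to 14), 31 to 34 in RCC4 (core 11 to 12, regulatory 14 to 16) and 12 to 26 in HepG2 (core 3 to 10, regulatory 1 to 6). It gave 2 to 14 for HepG2 minus HKC-8, 3 to 13 for RCC4 minus HKC-8 and 6 to 10 for RCC4 minus HepG2, and 33 to 37, 31 to 39 and 42 to 43 for the normoxic comparisons of HepG2 with HKC-8, RCC4 with HKC-8 and HepG2 with RCC4. Of the values of single named genes under alternatives, 785 kept direction and side of the threshold, 71 no longer passed it, 7 newly passed it and 1 turned: PSMB8 in HKC-8 without normoxic replicate 3, at 0.012 (adjusted p = 0.981), with a range of -0.24 to 0.012 over the libraries left out. Except as stated, the cause of these shifts was not tested. PSMB9 and PSMD5 in HKC-8 and PSMB8 and PSMB9 in RCC4 were too low to test.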
